A study of Homo sapiens with 12 samples.

Results

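Translation initiation factors are the proteins that bring the small ribosomal subunit, the initiator tRNA and the mRNA together before a protein is made. The members were the genes whose symbol begins with EIF1 to EIF6, without the EIF2AK kinase genes, pseudogenes and antisense genes. For each gene the brightest probe set by its mean over 12 arrays was used, among probe sets that carry 1 symbol. Of 45 such genes, 41 were kept because they reached log2 4 on 3 or more arrays, among 13130 genes tested and 19775 in all. Each of the 41 was above that level on 12 of 12 arrays, and the lowest was EIF2B5 at a mean log2 level of 7.47. Just outside were EIF4E3 at a mean of 3.67 and EIF3C at 3.52, with EIF4A2 at 1.78, and EIF1AY was also not kept. EIF4A1, EIF3CL and EIF4EBP3 had only probe sets with several symbols, as did most probe sets of EIF3C and EIF4A2, and were not analysed here.

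RNA came from Sk-hep1, an established human cell line that the labels place in liver and ascites and call an endothelial adenocarcinoma. Cells were kept in high-fat medium (HFM), made on DMEM/F12, or in growth medium (GM), made on DMEM. The 4 groups were HFM for 24 hours, GM for 24 hours, HFM for 12 hours and GM for 12 hours, with 3 arrays each. The labels do not name the fat, and fat and basal medium cannot be told apart. All groups are 1 cell line, and the labels do not say whether replicates were separate cultures. The p-values thus cover only the spread among these arrays, and that spread may be technical.

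Several facts of the arrays stand beside the results. The difference between the 3' and 5' control probe sets of ACTB, a check of RNA integrity, averaged 1.58 ± 0.06 (SD, n = 3) in HFM and 1.07 ± 0.05 in GM at 24 hours, and 0.84 ± 0.13 in HFM and 0.89 ± 0.03 in GM at 12 hours, in log2 units. Its part in the 24-hour results was not tested. HFM 12-hour replicate 1 stood apart. Its spiked-in hybridisation controls lay at log2 10.19, against 10.01 and 10.06 on the other HFM arrays at that time. That array shared this higher class with the GM arrays at 12 hours. The higher and lower classes were made from these same values, by cutting the array means at their largest gap, between 10.06 and 10.19. Of 12 endothelial markers, 6 passed the filter and CDH5, VWF, KDR, TEK, TIE1 and CLDN5 did not, whereas the keratins KRT8, KRT18 and KRT19 had medians of log2 11.02 to 13.56 and the epithelial genes EPCAM and CDH1 did not pass. Of the other lists, 4 of 7 hepatocyte markers and 3 of 5 leukocyte markers passed the filter, with 0 medians at log2 8 or more, and ALB and PTPRC did not pass.

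Initiation begins when eIF2, bound to GTP, carries the initiator tRNA to the small subunit together with eIF1, eIF1A, eIF3 and eIF5. The eIF4 factors bind the cap of the mRNA and unwind its leader, and eIF4E binding proteins keep the cap-binding subunit eIF4E from the scaffold eIF4G. When the start codon is reached, eIF5 makes eIF2 hydrolyse its GTP, eIF5B joins the large subunit, and eIF2B reloads eIF2 with GTP. Phosphorylation of eIF2 under stress blocks eIF2B, which lowers protein synthesis. Most of this control acts on proteins, which arrays do not measure. A lower array value cannot tell apart fewer transcripts per cell from a smaller share of the total RNA.

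The largest difference among the members was in EIF5 at 24 hours. EIF5, the protein that triggers GTP hydrolysis on eIF2, had log2 levels of 8.02, 7.87 and 8.002 in HFM, against 10.89, 10.82 and 10.76 in GM. The 3 HFM arrays lay far below the 3 GM arrays. The difference was -2.86 ± 0.07 (SE, n = 3 per group, limma adjusted p = 8.51e-11), or 0.138 times the GM level. Among 13130 genes, 8 had a lower difference. At 12 hours EIF5 was at 10.68, 10.46 and 10.38 in HFM, against 10.39, 10.37 and 10.37 in GM, and the groups overlapped. That difference was 0.13 ± 0.07 and did not pass the test (limma adjusted p = 0.136). The effect of HFM at 24 hours minus that at 12 hours was -2.99 ± 0.10 (limma adjusted p = 4.77e-09).

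EIF4EBP2, a repressor that holds eIF4E when it is unphosphorylated, was at log2 6.62, 6.66 and 6.77 in HFM, against 7.96, 8.01 and 7.87 in GM at 24 hours. It fell by 1.26 on the log2 scale (SE 0.11, limma adjusted p = 1.06e-06), and the groups did not overlap. At 12 hours it was at 8.37, 7.97 and 7.84 in HFM, against 7.77, 7.72 and 7.71 in GM, a rise of 0.33 ± 0.11 (limma adjusted p = 0.0205). Without HFM 12-hour replicate 1 that rise was 0.17. The effects at the 2 times differed by -1.59 ± 0.15 (limma adjusted p = 5.11e-06).

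EIF1AD, a protein with an eIF1A-like domain, was at log2 7.29, 7.04 and 7.13 in HFM, against 8.27, 8.32 and 8.18 in GM at 24 hours. Its difference was -1.10 ± 0.07 (limma adjusted p = 5.67e-08). At 12 hours it differed by -0.17 ± 0.07 (limma adjusted p = 0.0431), a call that was lost in 13 of 23 alternatives. EIF5, EIF4EBP2 and EIF1AD were the 3 members called lower with at least a 2-fold difference at 24 hours, a class that held 5.2% of all genes tested. No member was called higher by 2-fold or more there (0 of 41, against 2.28% of all genes tested).

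**Figure D1:**
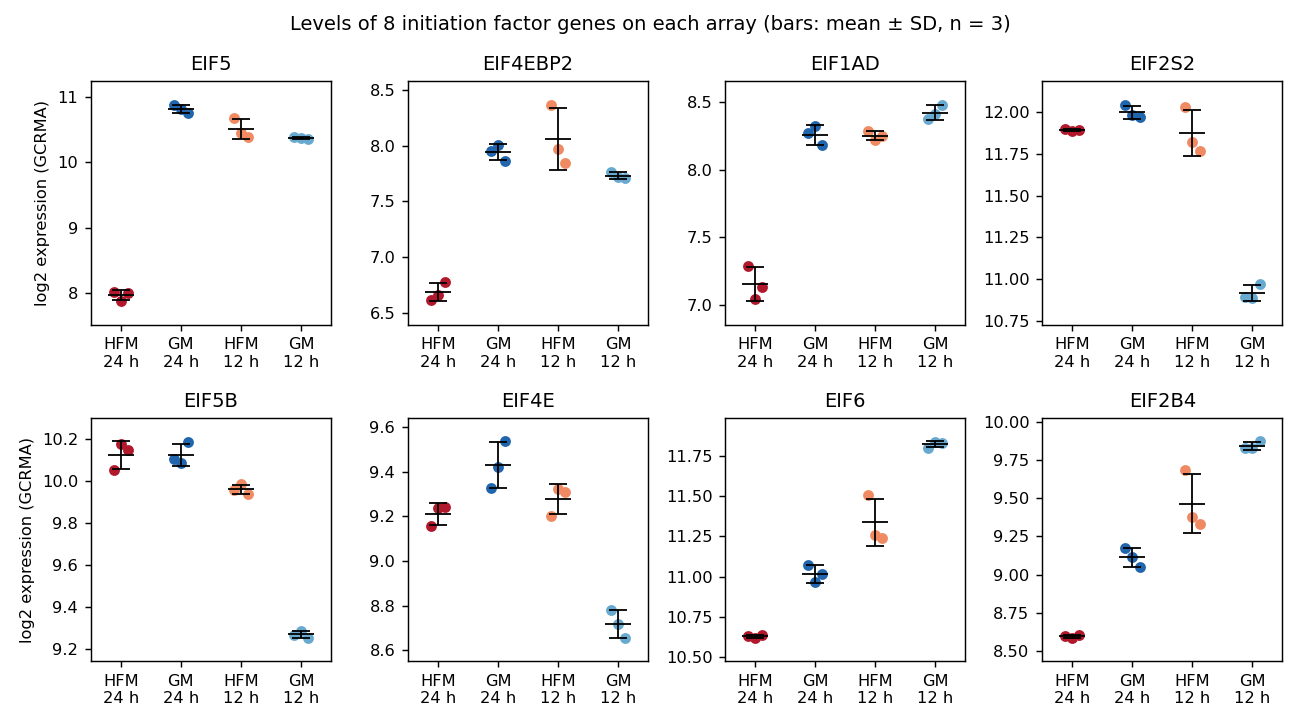
Log2 expression (GCRMA values, vertical axes) of 8 initiation factor genes on each array, for HFM and GM at 24 and 12 hours. Points are arrays and bars are the mean ± SD of 3 arrays. EIF5 sits at 7.87 to 8.02 in HFM at 24 hours, and EIF2S2, EIF5B and EIF4E are lowest in GM at 12 hours.

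The bases just before the start of these 3 genes are shown because these are the members with the largest falls. The sequences are those of RefSeq on GRCh38.p14, each 250 bases, 5′ to 3′ on the strand of the gene. Capitals mark TGACGT, the core of the element bound by CREB and ATF factors, on either strand. This motif was chosen after the sequences and earlier results were known.
EIF5 (chr14:103333987-103334236, plus strand): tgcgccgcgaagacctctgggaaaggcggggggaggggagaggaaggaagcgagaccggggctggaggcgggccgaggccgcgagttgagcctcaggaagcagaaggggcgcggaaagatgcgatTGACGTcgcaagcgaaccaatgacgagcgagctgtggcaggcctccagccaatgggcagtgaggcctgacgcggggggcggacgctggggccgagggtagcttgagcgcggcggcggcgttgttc
EIF4EBP2 (chr10:70403895-70404144, plus strand): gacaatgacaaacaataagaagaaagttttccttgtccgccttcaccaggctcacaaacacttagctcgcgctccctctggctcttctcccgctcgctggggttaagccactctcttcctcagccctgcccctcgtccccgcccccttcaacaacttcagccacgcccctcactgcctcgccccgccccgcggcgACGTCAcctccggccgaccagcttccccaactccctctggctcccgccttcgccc
EIF1AD (chr11:66002158-66002407, minus strand): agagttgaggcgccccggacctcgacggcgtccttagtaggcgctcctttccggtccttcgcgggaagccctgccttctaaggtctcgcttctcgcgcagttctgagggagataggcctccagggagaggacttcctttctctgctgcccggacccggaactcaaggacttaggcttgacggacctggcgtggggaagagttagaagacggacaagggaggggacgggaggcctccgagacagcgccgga

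EIF5 lies on chromosome 14 from 103334237 to 103345025, EIF4EBP2 on chromosome 10 from 70404145 to 70428618, and EIF1AD on chromosome 11 from 65996545 to 66002157, so each window ends at the annotated start. The table holds 2 starts for EIF5 and the first is shown. TGACGT begins 125 bases before the start in EIF5, and it reads on the other strand 55 bases before the start in EIF4EBP2. These letters are not in the window of EIF1AD. Of 41 members, 34 had an entry, and 3 of the 34 (8.82%) held the motif on either strand, namely EIF3D, EIF4EBP2 and EIF5, against 7.42% of 27305 promoters. TGATGNAA, a form of the element bound by ATF4 dimers, was in 0 of 34 on either strand, against 3.19% of all. CCAAT, the box bound by NF-Y, was in 14 of 34 (41.2%), EIF5 included, against 33.0% of all. A match is a description of letters and not of binding.

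By counts, HFM against GM at 24 hours gave 4 members higher, 17 lower and 20 not called, where called means a limma adjusted p under 0.05 over all 13130 genes. Of all genes, 20.6% were called higher and 37.5% lower. The members' shares of 51.2% called, against 58.1% of all genes, and their median log2 difference of -0.11, against -0.08 for all genes, lie close to the background. The arrays of both media did not overlap in 30 members, against 68.7% of all genes. When each array was centred on the median of its tested genes, the median of all genes moved by 0.18 and the members split into 14 higher and 14 lower. Without HFM 12-hour replicate 1, which enters only through the estimate of spread, 7 were called higher and 23 lower.

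**Figure D2:**
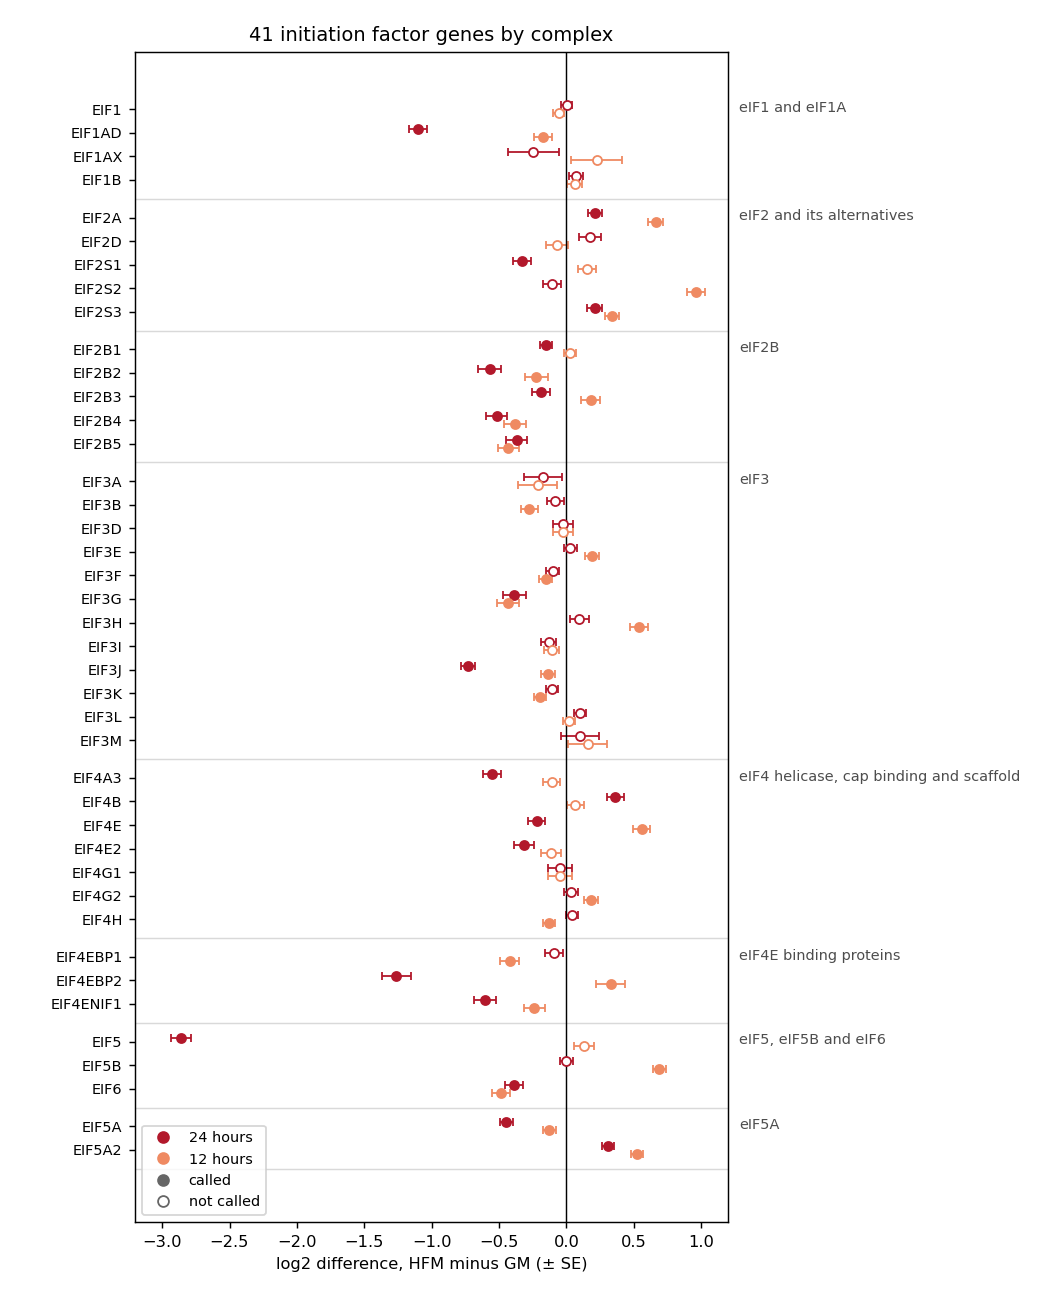
Log2 difference of HFM minus GM (horizontal axis, ± SE) for 41 members, grouped by complex, at 24 hours (dark) and 12 hours (light). Filled points were called and open points were not; EIF5 at -2.86 and EIF4EBP2 at -1.26 are the farthest to the left at 24 hours.

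Among the factors that open the small subunit, EIF1, which guards start codon choice, was not called. EIF1 was at log2 13.06, 13.07 and 13.10 in HFM, against 13.07, 13.09 and 13.08 in GM at 24 hours, a difference of 0.00 ± 0.04 (limma adjusted p = 0.965). Its paralog EIF1B differed by 0.07 ± 0.05 (limma adjusted p = 0.289). Both were called higher after centring, at 0.18 and 0.25, and EIF1 was called lower, at -0.09, after a repeated quantile normalisation. EIF1AX, which encodes eIF1A, differed by -0.25 ± 0.19 and was not called (limma adjusted p = 0.294). Its HFM 12-hour replicate 1 read log2 10.02, against 10.91 and 10.92 on the other HFM arrays at that time. Without that array EIF1AX was called higher at 12 hours, at 0.52. It was then also called lower at 24 hours, where its arrays did not overlap between media.

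The 3 subunits of eIF2 went different ways at 24 hours. EIF2S1, the alpha subunit that stress kinases phosphorylate, fell by 0.33 on the log2 scale (SE 0.07, limma adjusted p = 0.00126). EIF2S3, the gamma subunit that binds GTP and tRNA, rose by 0.21 ± 0.05 (limma adjusted p = 0.00569), and EIF2S2, the beta subunit, differed by -0.11 ± 0.06 and was not called. EIF2A, described as a carrier of initiator tRNA that works without eIF2, rose by 0.21 ± 0.05 (limma adjusted p = 0.00463). EIF2D, a factor related to the recycling protein DENR, differed by 0.17 ± 0.08 and was not called.

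All 5 subunits of eIF2B, the exchange factor that reloads eIF2, were called lower in HFM at 24 hours, against 37.5% of all genes tested. EIF2B2 was at log2 8.58, 8.53 and 8.47 in HFM, against 9.20, 9.08 and 9.01 in GM. EIF2B4 was at 8.60, 8.59 and 8.61 in HFM, against 9.17, 9.12 and 9.05 in GM. Neither gene overlapped between media, and the differences were -0.57 ± 0.09 and -0.52 ± 0.08 (limma adjusted p = 0.000119 and 0.000145). EIF2B5, the catalytic subunit, differed by -0.37 ± 0.08, or by 0.07 and not called with the mean of its probe sets, EIF2B3 by -0.19 ± 0.07 and EIF2B1 by -0.15 ± 0.04. After centring, 3 of 5 were still lower (EIF2B2, EIF2B4 and EIF2B5), and EIF2B1 and EIF2B3 were not called. After a repeated quantile normalisation 4 of 5 were lower, without EIF2B3. In all, the call of EIF2B3 was lost in 10 of 23 alternatives.

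The 12 measured subunits of eIF3, the large scaffold on the small subunit, had a median log2 difference of -0.09, with 0 higher and 2 lower at 24 hours. EIF3J, a loosely bound subunit that helps release the complex, was at log2 8.92, 8.91 and 8.94 in HFM, against 9.55, 9.68 and 9.74 in GM. It fell by 0.73 (SE 0.05, limma adjusted p = 2.06e-07), with no overlap. EIF3G, a subunit with an RNA-binding domain, fell by 0.39 (SE 0.08, limma adjusted p = 0.00177). The core subunits EIF3A and EIF3B differed by -0.17 ± 0.14 and -0.08 ± 0.06 and were not called. Which subunits pass depends on HFM 12-hour replicate 1: without it, 2 were called higher and 6 lower. After centring, 4 were called higher and 2 lower.

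Of 7 eIF4 factors, 1 was higher and 3 were lower at 24 hours. EIF4B, which stimulates the helicase, was at log2 11.08, 11.09 and 11.20 in HFM, against 10.79, 10.76 and 10.73 in GM, a rise of 0.36 ± 0.06 (limma adjusted p = 0.000292). EIF4A3, the helicase of the exon junction complex rather than of initiation, was at 10.44, 10.43 and 10.42 in HFM, against 11.01, 11.01 and 10.93 in GM, and fell by 0.55 (SE 0.07, limma adjusted p = 1.56e-05). Neither gene overlapped between media. The repressive cap-binding homolog EIF4E2 fell by 0.32 (SE 0.07). EIF4E, the cap-binding protein, fell by 0.22 (SE 0.06, limma adjusted p = 0.0109) on its chosen probe set, whereas its other tested probe sets differed by 0.48 and 0.23 and were not called. The scaffold EIF4G1, its relative EIF4G2, which lacks the eIF4E site, and EIF4H, a partner of the helicase, were not called on their chosen probe sets. They differed by -0.05, 0.03 and 0.04. The other tested probe set of EIF4G1 was called lower, at -0.73.

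Of the other eIF4E binding proteins, EIF4EBP1, the best known target of mTOR in this family, was at log2 9.90, 9.81 and 9.86 in HFM, against 10.01, 9.93 and 9.91 in GM at 24 hours. It differed by -0.09 ± 0.07 and was not called (limma adjusted p = 0.276). At 12 hours it was at 10.30, 10.03 and 10.08 in HFM, against 10.58, 10.51 and 10.58 in GM, a fall of 0.42 on the log2 scale (SE 0.07, limma adjusted p = 0.000252). EIF4ENIF1, which carries eIF4E to the nucleus and to P-bodies, fell by 0.60 at 24 hours (SE 0.08) and by 0.24 at 12 hours (SE 0.08).

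Of the late factors, EIF5B, the GTPase of subunit joining, differed by 0.00 ± 0.05 at 24 hours. EIF6, which keeps free large subunits from joining, was at log2 10.63, 10.62 and 10.64 in HFM, against 11.07, 10.96 and 11.02 in GM at 24 hours. It fell by 0.39 at 24 hours (SE 0.07, limma adjusted p = 0.000336) and by 0.48 at 12 hours (SE 0.07, limma adjusted p = 8.32e-05). The eIF5A pair, which carries the hypusine residue and helps peptide bond formation, moved apart on the chosen probe sets. EIF5A fell by 0.45 at 24 hours (SE 0.05, limma adjusted p = 6.45e-06), whereas EIF5A2 rose by 0.31 ± 0.05 (limma adjusted p = 9.68e-05). Of 3 tested probe sets of EIF5A2, 1 was called at 24 hours, and the differences ran from 0.04 to 0.31. At 12 hours EIF5A fell by 0.13 (SE 0.05), a call that was lost in 10 of 22 alternatives, and EIF5A2 rose by 0.52 ± 0.05.

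At 12 hours, HFM against GM gave 11 members higher and 14 lower, against 28.9% and 33% of all genes tested, where 61.9% were called in either direction. The members' median was -0.05 and that of all genes -0.07. The arrays did not overlap in 26 members, against 63.6% of all genes. No member was called with a 2-fold difference in either direction (0 of 41, against 1.94% of all genes higher and 0.236% lower). Without HFM 12-hour replicate 1 the split was 12 higher and 20 lower. The lower count was 7 without HFM 12-hour replicate 2 or 3 and lay between 8 and 9 without any 1 of the GM 12-hour arrays.

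The largest rises among the members at 12 hours were those of EIF2S2, EIF5B and EIF2A. EIF2S2 was at log2 12.03, 11.82 and 11.77 in HFM, against 10.89, 10.88 and 10.97 in GM. It rose by 0.96 ± 0.06 (limma adjusted p = 3.44e-07), or 0.88 without HFM 12-hour replicate 1. EIF5B was at 9.96, 9.98 and 9.94 in HFM, against 9.27, 9.29 and 9.26 in GM. It rose by 0.69 ± 0.05 (limma adjusted p = 5.68e-07). EIF2A was at 10.08, 10.24 and 10.20 in HFM, against 9.49, 9.56 and 9.49 in GM, a rise of 0.66 ± 0.05 (limma adjusted p = 1.34e-06). None of these 3 genes overlapped between media.

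EIF4E was at log2 9.20, 9.32 and 9.31 in HFM, against 8.78, 8.72 and 8.66 in GM at 12 hours, a rise of 0.56 ± 0.06 (limma adjusted p = 1.74e-05). Its other tested probe sets differed by 0.40 and 0.20 and were not called, and with the mean of its probe sets the difference was 0.10 and not called. EIF3H, another subunit of eIF3, rose by 0.54 ± 0.07 and EIF2S3 by 0.34 ± 0.05. The falls were smaller. After EIF6 they were led by EIF3G at -0.43 ± 0.08, EIF2B5 at -0.43 ± 0.08, EIF4EBP1 at -0.42 ± 0.07 and EIF2B4 at -0.38 ± 0.08. Of the eIF2B subunits, 3 were lower and EIF2B3 was higher at 0.18 ± 0.07. That call was lost in 12 of 23 alternatives, the one without HFM 12-hour replicate 1 included. The call of EIF2B2, among the 3 lower, was lost in 11 of 23 alternatives and its difference turned in 1.

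The change of effect between the times was tested directly. The HFM effect at 24 hours minus that at 12 hours was called higher in 3 members and lower in 17, against 19.4% and 33.4% of all genes, where 52.8% were called in either direction. At 2-fold or more, 0 were higher and 3 lower (EIF5, EIF4EBP2 and EIF2S2), against 1.25% and 6.71% of all genes. The members' median was -0.15 and that of all genes -0.04. After centring, which moved the median of all genes by 0.20, the split was 14 higher and 11 lower, and after a repeated quantile normalisation it was 6 and 15. Without HFM 12-hour replicate 1 it was 6 and 22. After EIF5 and EIF4EBP2 the lowest were EIF2S2 at -1.07 ± 0.09 (limma adjusted p = 2.07e-06), EIF1AD at -0.93 ± 0.09, EIF4E at -0.78 ± 0.09 and EIF5B at -0.69 ± 0.07. The other tested probe set of EIF2S2 was called lower at -0.49, less than 2-fold. The 3 called higher were EIF4EBP1 at 0.33 ± 0.10, EIF4B at 0.30 ± 0.09 and EIF4H at 0.17 ± 0.06. The call of EIF4H was lost in 14 of 21 alternatives, and EIF4B had 2 probe sets called higher and 1 lower in this comparison.

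The time comparisons show where these differences lie. In HFM, 24 hours against 12 hours gave 6 members higher and 23 lower, against 20.1% and 43.1% of all genes (63.1% in either direction), with a members' median of -0.28 and a median of all genes of -0.12. At 2-fold or more, 0 were higher and 3 lower in HFM (EIF5, EIF4EBP2 and EIF1AD), against 2.35% and 5.3% of all genes. After centring the HFM split was 16 higher and 18 lower, with a shift of 0.22 in the median of all genes; after a repeated quantile normalisation that shift was 0.13. In GM, 24 hours against 12 hours gave 14 higher and 20 lower, against 29.4% and 40.5% of all genes (69.9% in either direction), with medians of -0.04 for the members and -0.12 for all genes. The GM arrays at 24 hours were all in the lower class of hybridisation controls and those at 12 hours all in the higher one. With that class as a term, which rests on the 1 HFM 12-hour array of the higher class, the GM split was 11 higher and 11 lower. The 2 times did not overlap in 33 members in HFM and 37 in GM, against 65.9% and 78.9% of all genes. The comparison of media at 12 hours and the time comparison in GM share the GM 12-hour arrays, and each time comparison shares arrays with the comparisons of media. Their values are therefore given side by side only.

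EIF5 was at 7.96 ± 0.08 (SD, n = 3) in HFM at 24 hours and 10.51 ± 0.15 in HFM at 12 hours, a difference of -2.54 ± 0.07 (SE, limma adjusted p = 3.09e-10). In GM it was at 10.83 ± 0.06 at 24 hours and 10.37 ± 0.01 at 12 hours, a rise of 0.45 ± 0.07 (limma adjusted p = 0.000194). EIF5 and EIF3J, at -0.47 in HFM and 0.13 in GM, were the 2 members called lower over time in HFM and higher in GM, against 8.51% of all genes. The GM call of EIF3J was lost in 15 of 22 alternatives. EIF4EBP2 fell by 1.38 in HFM and differed by 0.21 in GM, where it was not called. EIF2S2 was at 11.89 in HFM at 24 hours and 11.87 in HFM at 12 hours, and at 12.00 in GM at 24 hours and 10.91 in GM at 12 hours. Its GM rise of 1.09 ± 0.06 was the largest among the members. EIF2S2 was the 1 member called with at least a 2-fold rise there (3.85% of all genes), while 0 fell by as much (0.419% of all genes). On its other tested probe set EIF2S2 rose by 0.34 in GM, which was also called.

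A set of 18 members was lower at the later time in both media, against 24.6% of all genes, and 6 were higher in both, against 12.5%. Only 11 members were called lower in GM when the hybridisation class was a term, so the 18 do not all hold there. The 18 include EIF6 at -0.71 in HFM and -0.80 in GM, EIF2B4 at -0.87 in HFM and -0.73 in GM, EIF3G at -0.66 in HFM and -0.70 in GM, and EIF4E2 at -0.78 in HFM and -0.57 in GM. Apart from the 2-fold minimum, which none of them reached, the calls of these named genes held in both media in every alternative that tested them. Of 4 tested probe sets of EIF4E2, 3 were called lower over time in HFM and 1 higher, at 0.30. A further 6 were higher in GM and not called in HFM, against 8.44% of all genes, and these include EIF2S2, EIF4E and EIF1AX. For EIF4E this holds on the chosen probe set only. Of its 3 tested probe sets, 2 were called higher over time in HFM, by up to 0.82, and 3 in GM. With the hybridisation class as a term EIF2S2 and EIF4E were still called higher in GM, at 1.32 and 0.60, whereas EIF1AX turned to -0.11 and was not called. Over the 4 groups, the mean level of EIF6 was 10.63 in HFM and 11.02 in GM at 24 hours, and 11.34 in HFM and 11.82 in GM at 12 hours. HFM was below GM at both times and the later time below the earlier one in both media, each by a called difference. GM at 24 hours was not tested against HFM at 12 hours.

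**Figure D3:**
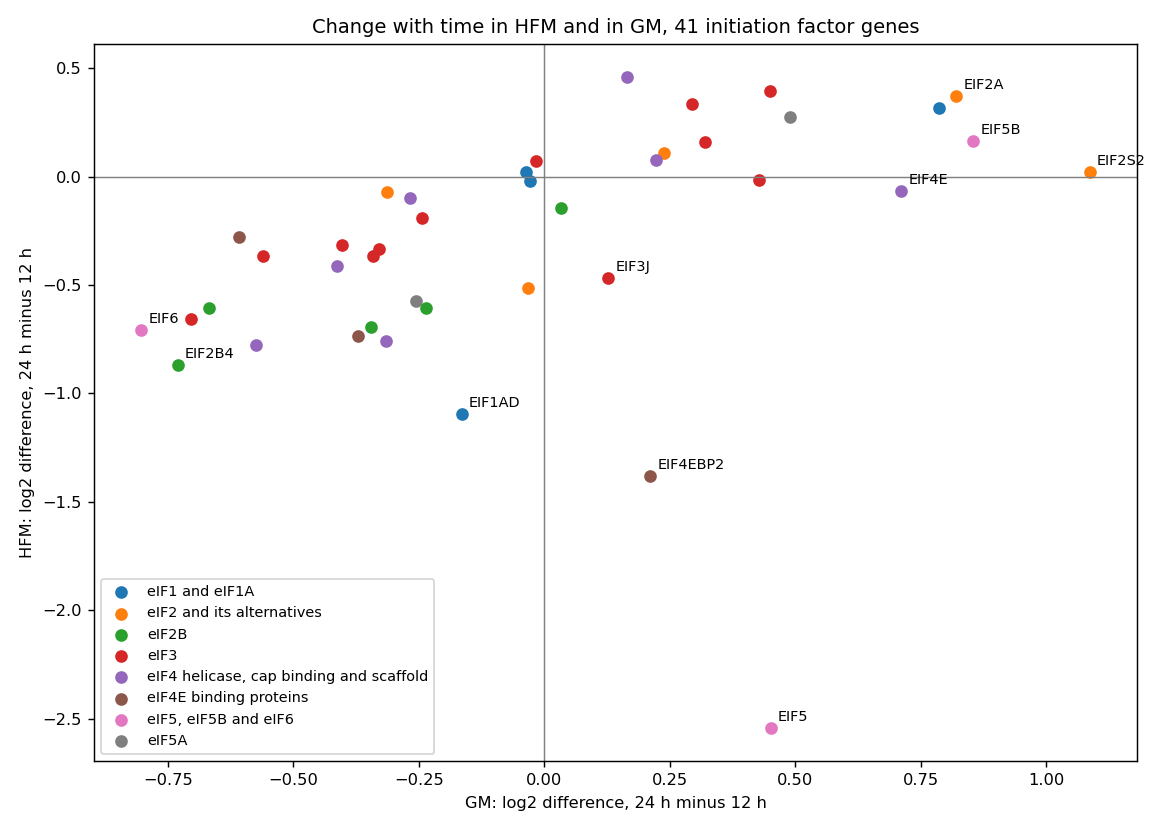
Log2 difference of 24 hours minus 12 hours in HFM (vertical axis) against the same difference in GM (horizontal axis) for 41 members, coloured by complex. EIF5 lies at -2.54 in HFM and 0.45 in GM, EIF2S2 at 0.02 and 1.09, and EIF6 at -0.71 and -0.80.

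Probe sets of one gene were compared next. The 41 members had 108 probe sets, of which 99 were tested, and 25 members had several tested probe sets. Of all single-symbol probe sets tested, 58.9% were called at 24 hours. EIF5 had 5 tested probe sets and 5 were called lower at 24 hours. Probe set 208290_s_at differed by -3.04, 208706_s_at by -2.98, 208708_x_at by -2.98 and the chosen 208705_s_at by -2.86. The dimmest, 208707_at, was at log2 4.22 in HFM and 4.97 in GM and differed by -0.75 ± 0.15. EIF4EBP2 had 4 tested probe sets, all lower at 24 hours, from -0.42 to -1.78. At 12 hours they disagreed: the chosen probe set differed by 0.33, and 208770_s_at, at 7.09 in HFM and 7.56 in GM, by -0.47. EIF1AD had 2 tested probe sets, at -1.10 and -0.69. The rise of EIF2S2 at 12 hours was called on both of its probe sets (0.58 and 0.96) and that of EIF5B on 5 of 6.

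At 24 hours 4 of the 25 members (16%), EIF1, EIF3A, EIF4B and EIF4E2, had probe sets called in opposite directions, against 15.5% of 6477 genes with several tested probe sets. EIF1, flat on its chosen probe set, had 5 probe sets called higher and 1 lower. Its 212225_at was at log2 6.69 ± 0.05 (SD, n = 3) in HFM and 5.30 ± 0.08 in GM, a difference of 1.38 ± 0.10 (SE), and 228967_at differed by -0.56 ± 0.08. EIF4E2 was called lower on its chosen probe set and on 226734_at (-1.30), and higher on 213570_at (0.68). EIF3A read -0.55 on 200596_s_at and 0.21 on 200597_at, and EIF4B read -0.42 on 219599_at.

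The counts of members with opposite probe sets were 4 (16%) at 12 hours (EIF3B, EIF3M, EIF4E2 and EIF4EBP2, against 6.24% of all such genes) and 3 (12%) for the difference of effects, against 10.4%. They were 6 (24%) for time in HFM, against 15.2%, where the opposite probe set of EIF3K passed the filter only through the HFM 24-hour arrays, and 2 (8%) for time in GM, against 5.51%. Of the tested probe sets, 59.5% were called at 12 hours, 52.7% for the difference of effects, 63% for time in HFM and 66.5% for time in GM.

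Some probe sets of members, dimmer than the chosen one, were higher in HFM at 24 hours while the chosen probe set was not called. Others were called lower beside a chosen probe set that was not called, such as those of EIF3F at -0.78 and EIF4G1 at -0.73. Of the higher ones, the 4 below were singled out after their values were seen. For EIF4G2, 217607_x_at was at log2 6.58 ± 0.38 (SD, n = 3) in HFM and 3.35 ± 0.07 in GM at 24 hours, and at 3.49 ± 0.28 in HFM and 3.24 ± 0.08 in GM at 12 hours. It passed the filter only through the 3 HFM 24-hour arrays, so its difference is not read as a test; the chosen one differed by 0.03. For EIF3B, 236274_at was at 7.58 in HFM and 5.44 in GM, a difference of 2.14 ± 0.10, while the chosen one differed by -0.08. For EIF3E, a further eIF3 subunit, 235429_at differed by 1.30 ± 0.10, while the chosen one differed by 0.03. The fourth was 212225_at of EIF1, given above. The position of these probe sets in their transcripts was not used here.

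**Figure D4:**
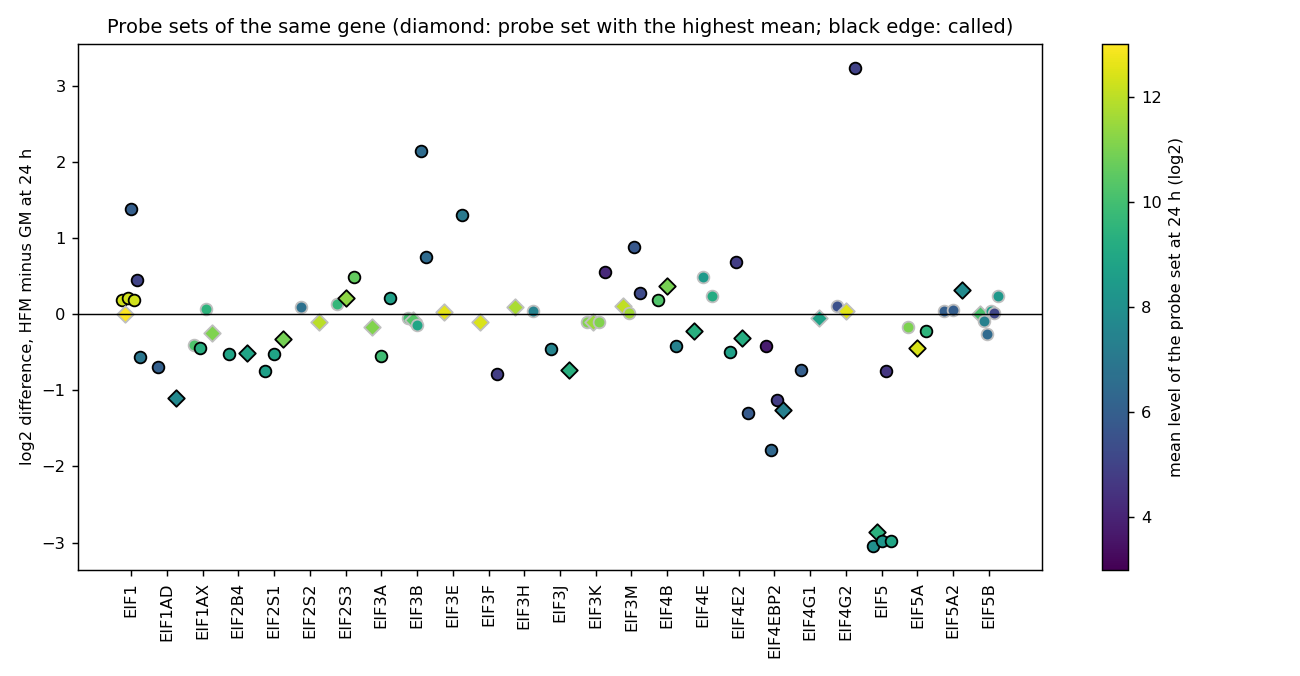
Log2 difference of HFM minus GM at 24 hours (vertical axis) for each tested probe set of the 25 members with several, coloured by mean log2 level. Diamonds are the chosen probe sets and black edges mark called ones; 4 probe sets of EIF5 lie between -3.04 and -2.86, and the highest point, 217607_x_at of EIF4G2, passed the filter only through the HFM 24-hour arrays.

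Genes that act on initiation without being members were counted from 4 lists. Of all genes tested, 20.6% were called higher and 37.5% lower at 24 hours, and 28.9% and 33% at 12 hours. Of 8 eIF2 alpha kinases and phosphatase subunits, 4 were higher and 2 lower at 24 hours (75% called, against 58.1% of all genes). PPP1R15A, the inducible subunit that directs dephosphorylation of eIF2 alpha, was at log2 8.31, 8.27 and 8.33 in HFM, against 6.18, 6.09 and 6.03 in GM, a rise of 2.20 ± 0.07 (limma adjusted p = 4.53e-10). At 12 hours it fell by 0.29 (SE 0.07). EIF2AK3, the kinase PERK of the endoplasmic reticulum, rose by 0.74 ± 0.06 at 24 hours and 0.45 ± 0.06 at 12 hours. GCN1, the activator of the amino acid-sensing kinase GCN2, fell by 0.71 (SE 0.06).

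Of 21 cap and mTOR control genes, 4 were higher and 10 lower at 24 hours (66.7% called, against 58.1% of all genes). PDCD4, an inhibitor of the helicase eIF4A, was at log2 5.53, 5.42 and 5.65 in HFM, against 2.22, 2.27 and 2.26 in GM. At 12 hours it averaged 2.44 ± 0.17 (SD, n = 3) in HFM and 2.05 ± 0.06 in GM. PDCD4 thus passed the filter only through the 3 HFM 24-hour arrays, so its difference, counted among the 4 higher, is not read as a test. GIGYF2, a partner of EIF4E2, fell by 0.77 (SE 0.09), and RPTOR, the raptor subunit of mTOR complex 1, fell by 0.71 (SE 0.13).

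Of 10 other initiation and recycling factors, 1 was higher and 5 lower at 24 hours, against 6 and 2 at 12 hours. These were 60% and 80% called, against 58.1% and 61.9% of all genes. The lowest difference of this list at 24 hours was that of ABCF1, at -0.48. ABCE1, the ATPase that splits ribosomes, rose by 0.83 ± 0.05 at 12 hours and fell by 0.15 (SE 0.05) at 24 hours. Of 9 elongation and termination factors, 1 was higher and 5 lower at 24 hours (66.7% called, against 58.1% of all genes). The release factor GTPase GSPT2 fell by 1.34 (SE 0.06), the kinase EEF2K, which inhibits elongation factor 2, fell by 1.05 (SE 0.06), and the release factor ETF1 fell by 0.96 (SE 0.06).

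**Figure D5:**
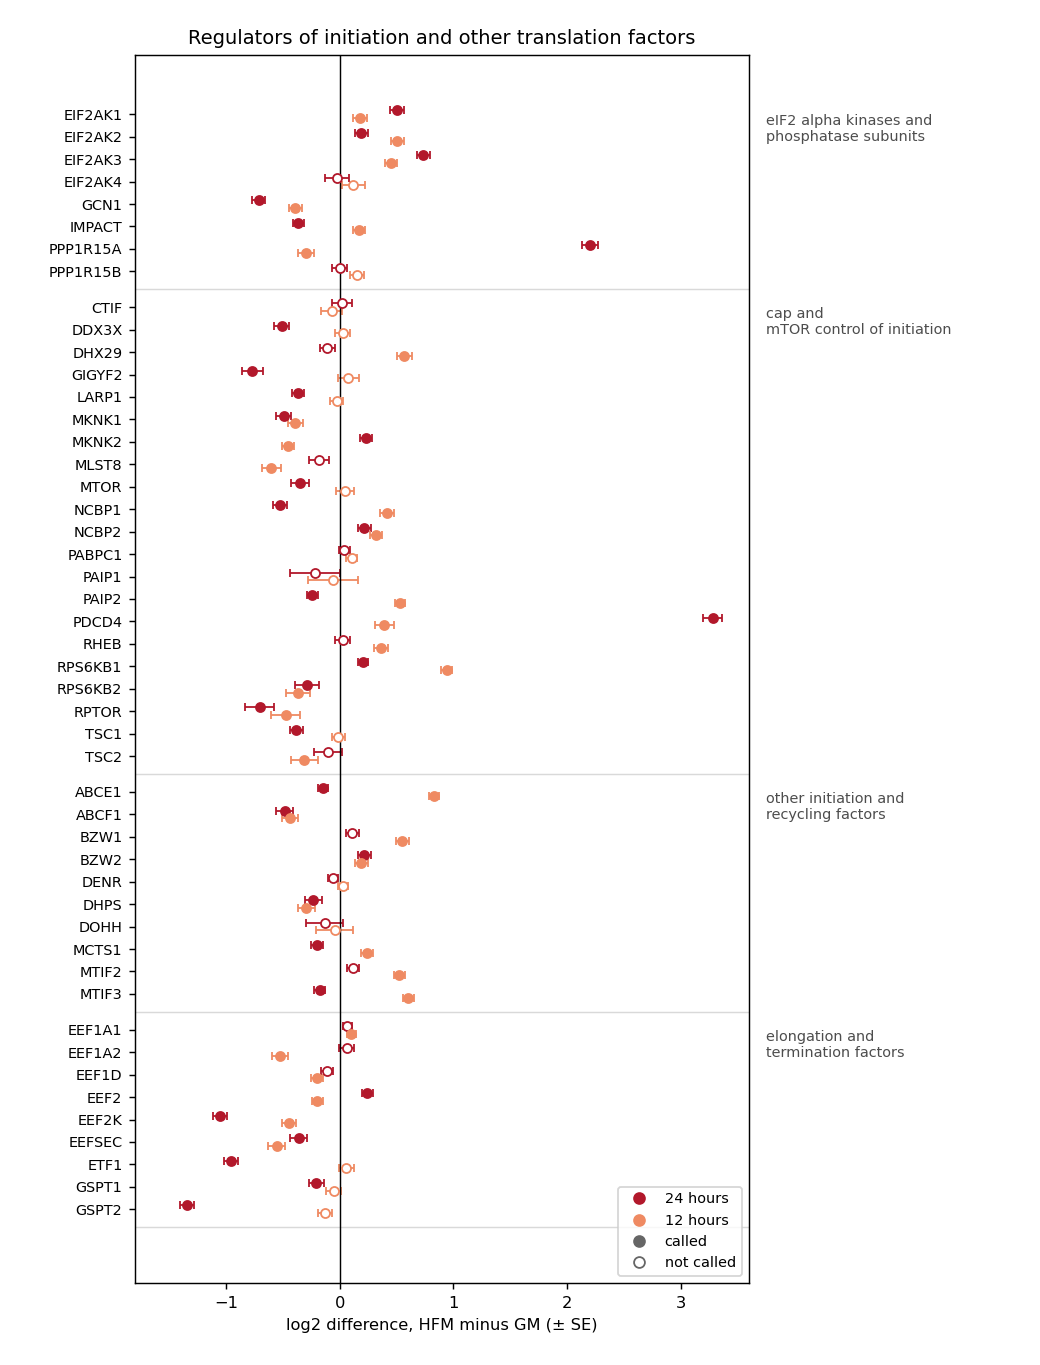
Log2 difference of HFM minus GM (horizontal axis, ± SE) for genes of 4 lists outside the members, at 24 hours (dark) and 12 hours (light); filled points were called. PPP1R15A lies at 2.20 at 24 hours and GSPT2, at -1.34, is the farthest to the left; PDCD4, farthest to the right, passed the filter only through the HFM 24-hour arrays.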

How the data were processed

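The deposited log2 expression values cover 54675 Affymetrix probe sets on 12 arrays. The authors computed them by GCRMA, as the submitters' processing notes state. This method corrects for background, normalises between arrays and summarises probes; no version is recorded. Of the probe sets, 41097 had 1 symbol in the platform annotation, 1801 several and 11777 none. Entrez identifiers of 41043 matched the reference, with 0 symbols changed. The number of arrays limits the precision.

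All arrays entered 1 linear model of 4 groups (limma 3.58.1, R 4.3.3, lmFit and eBayes). Benjamini-Hochberg adjustment ran over all genes, and errors of differences are SE. Probe sets were tested the same way, adjusted over 24649. The script was tested on simulated data. Members, complexes, gene lists and tests were chosen with earlier results of these data known. Named are the called members with the largest differences (up to 8 each way per comparison), members with opposite probe sets, the largest difference of each complex, paralogs, and up to 3 called genes of each other list. Alternatives were other filters, probe set rules, scalings, eBayes with trend, only the compared groups, a replicate block, a hybridisation control term, a 2-fold minimum, and each array left out. Promoters were searched in Python 3.11.15, and matplotlib 3.10.9 drew the figures.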

Additional observations from a re-analysis of the deposited data

Results flagged for a closer look

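The effect of HFM at 24 hours minus that at 12 hours passed the test of that difference (limma, adjusted p under 0.05 over all genes) in 20 members, which is what singled them out. The values are log2 differences. They were -2.99 for EIF5, -1.59 for EIF4EBP2, -1.07 for EIF2S2, -0.93 for EIF1AD, -0.78 for EIF4E, -0.69 for EIF5B and -0.59 for EIF3J. They were -0.48 for EIF2S1, -0.45 for EIF2A, -0.44 for EIF3H, -0.44 for EIF4A3, -0.37 for EIF2B3, -0.37 for EIF4ENIF1 and -0.35 for EIF2B2. The smallest negative values were -0.32 for EIF5A, -0.21 for EIF5A2 and -0.18 for EIF2B1. The positive values were 0.17 for EIF4H, 0.30 for EIF4B and 0.33 for EIF4EBP1. A negative value need not be a fall in HFM, as EIF5A2 was called higher in HFM at both times. The call was lost in 10 of 22 alternatives for EIF2B1, in 9 of 22 for EIF2B2 and in 14 of 21 for EIF4H. Centring each array moved the median of all genes by 0.20 in this comparison and turned EIF2B1 to 0.0249, and the other probe sets of EIF4E did not pass. Outliers were not searched for in groups of 3.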

How the results depend on the processing

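Over 23 alternatives each, EIF5 at 24 hours ranged from -2.89 to -0.75, EIF4EBP2 from -1.31 to -0.97 and EIF1AD from -1.17 to -0.90, all called; the weakest EIF5 value came where probe sets of the _x_at, _s_at and _a_at types were left out. In all, 204 of 238 counts stayed within 1.5 times, and of 2923 values of called members 2681 kept their call, 216 no longer passed and 26 turned; the causes were not tested. With the mean of all probe sets, EIF2B5 turned to 0.0726 and EIF4E to 0.0913 at 24 hours, EIF3J to 0.0091 and EIF4EBP2 to -0.0026 at 12 hours, EIF3B to 0.21 for HFM time, and EIF3F to 0.14 and EIF4B to -0.0098 for GM time; the higher counts were 7 at 24 hours and 7 for the difference of effects. Without those 3 probe set types, EIF4E turned to 0.48 at 24 hours and 0.0833 for the difference, EIF3B to 0.12 and EIF3F to 0.0023 at 12 hours, EIF3B to 0.40, EIF3F to 0.0737, EIF3K to 0.72 and EIF5B to -0.0576 for HFM time, and EIF3F to 0.86 and EIF3K to 0.044 for GM time; 8 were higher at 24 hours, 7 lower at 12 hours, 5 higher for the difference and 11 lower for GM time. After centring, EIF2B1 turned to 0.0268 at 24 hours, 0.0249 for the difference and 0.0734 for HFM time, and EIF3F to 0.0251 for HFM time; 14 were higher at 24 hours, 14 higher and 11 lower for the difference and 16 higher for HFM time. Quantile normalisation gave 6 higher for the difference. With the hybridisation control class, where HFM at 12 hours meets GM through 1 array, EIF2B2 turned to 0.0033 at 12 hours, and EIF1AX to -0.11, EIF2B3 to 0.0506, EIF2D to 0.0235 and EIF3M to -0.23 for GM time; 7 were higher at 24 hours, 9 lower at 12 hours and 11 lower for GM time. With no filter, 9 were lower at 12 hours. With only the compared groups, 7 were lower at 12 hours and 3 higher for HFM time. With a 2-fold minimum, higher and lower counts were 0 and 3 at 24 hours, 0 and 0 at 12 hours, 0 and 3 for the difference, 0 and 3 for HFM time, and 1 and 0 for GM time.

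Leaving out each array gave 4 to 7 higher and 15 to 23 lower at 24 hours, 9 to 13 and 7 to 20 at 12 hours, 2 to 6 and 15 to 22 for the difference, 4 to 7 and 23 to 23 for HFM time, and 12 to 16 and 19 to 20 for GM time; the highest lower counts came without HFM 12-hour replicate 1, at 23, 20 and 22. With the replicate block the pairs of counts were 4 and 18, 11 and 13, 3 and 17, 7 and 23, and 14 and 19. Deviations of same-numbered arrays from their group means correlated at r of -0.17 to 0.25. With 3 arrays per group these values cannot tell whether such arrays share more than a number.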
